A study of Homo sapiens with 4 samples.

Results

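The vacuolar H+-ATPase (V-ATPase) and the Rag-Ragulator complex were followed in MDA-MB-231 cells after AXL depletion. Members were chosen by symbol, as the protein-coding genes named ATP6V0, ATP6V1 or ATP6AP with any suffix, LAMTOR1 to LAMTOR5, RRAGA to RRAGD, FLCN, FNIP1 and FNIP2, which gave 38 of the 63677 genes in the table. Of these, 9 encode the membrane sector V0, 14 the cytosolic sector V1, 3 accessory proteins, 5 Ragulator, 4 the Rag GTPases and 3 the folliculin complex. MDA-MB-231, an established breast cancer line, is classed as triple-negative, a tumor type low in ESR1, PGR and ERBB2. Cells received a control siRNA (siCt, 2 libraries) or a commercial pool of siRNAs against AXL (siAxl, 2 libraries), which encodes a receptor tyrosine kinase. Cells of both groups were therefore of the same line and transfected, and the methods describe the transfection reagent as Lipofectamine. Since no label says that the libraries came from separate cultures, p-values measure the spread between these libraries, which may be technical.

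The V-ATPase is a rotary pump that acidifies lysosomes, endosomes and secretory vesicles. Its V1 sector hydrolyses ATP, and its V0 sector carries protons across the membrane. At the lysosome surface the pump contacts Ragulator, a scaffold that anchors the Rag GTPases. Rags work as heterodimers of RagA or RagB with RagC or RagD, which recruit the growth-regulating kinase complex of mTOR when amino acids are plentiful. Folliculin with FNIP1 or FNIP2 acts on the RagC or RagD side of the dimer. Both groups include known targets of the MiT/TFE factors, which bind the sequence CACGTG in promoters.

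The deposited values are normalized counts, that is, the reads of a gene divided by a size factor of its library. The reads recovered from them summed to between 39574387 and 44585773 per library. The spread within a group exceeded the sampling noise, since the chi-square per gene was 21.6 between the siCt libraries and 19.6 between the siAxl libraries. Mitochondrial genes took 3.70% of the reads in siCt 1 and 3.78% in siAxl 1, against 2.11% in siCt 2 and 2.28% in siAxl 2, so this share followed the library number and not the siRNA. AXL (ENSG00000167601), the targeted gene, had 29189 and 30617 normalized counts in siCt against 8658 and 7141 in siAxl. Its log2 fold change in siAxl over siCt was -1.93, with a standard error (SE) of 0.0918 and a Benjamini-Hochberg adjusted p of 0.000585 from limma. ESR1 and PGR had at most 3.25 normalized counts in any library, whereas VIM, a mesenchymal marker, had 86751 or more. The lists were mixed, since SPARC, another mesenchymal marker, had only 18.2 to 55.4. Of the luminal and epithelial markers, KRT8 had 15671 to 20771, KRT18 10076.5 to 12117 and KRT19 30958 to 32106. CDH1 (22.6 to 94.3) and FOXA1 (at most 6.71), from the same list, were low. ERBB2 was not absent, with 2949 to 3680. These ranges span both groups. CDH1 (log2 fold change -1.64, limma adjusted p = 0.00847) and KRT8 (-0.31, 0.0232) were lower in siAxl, and ERBB2 was higher (0.26, 0.0258). Summed over 6 mesenchymal markers the level was 177090 to 181449 in siCt and 167447 to 169266 in siAxl. This sum includes AXL itself, and the other 5 markers summed to 152260 and 146474 in siCt and, higher, to 160607 and 160307 in siAxl. VIM alone made up most of the sum of these 5. Over 10 luminal and epithelial markers the sum was 65695 to 68963 in siCt and 62382 to 62452 in siAxl.

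The promoters were searched for the letters CACGTG, which read the same on both strands. Fold changes were already at hand at this step. RefSeq promoters (build GRCh38.p14, 250 bases before to 50 after the start site) were at hand for 28 of the 38 members, and 9 of them (32.1%) held the motif. Among the 25 members that had a promoter and also passed the low-count filter the share was 36.0%, against 12.2% of 10282 tested genes with a promoter. In the same 9 promoters at least 1 copy had the longer form TCACGTG or CACGTGA, which overlaps the shorter one and was found in 6.99% of the tested genes. For each of the 9 genes the upstream copy nearest to the start is shown, with both copies of ATP6V0B, because that gene fell, so that the letters around the motif can be compared. The capitals mark the motif, and each stretch is written along the gene's own strand.
ATP6V0B (chr1:43974891-43974920, plus strand): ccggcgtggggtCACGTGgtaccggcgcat
ATP6V0B (chr1:43974909-43974938, plus strand): gtaccggcgcatCACGTGggcgagttaggt
ATP6V0D1 (chr16:67481199-67481228, minus strand): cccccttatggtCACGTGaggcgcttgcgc
ATP6V0E2 (chr7:149872884-149872913, plus strand): tcccttctgcatCACGTGgggactgcgcct
ATP6V1G1 (chr9:114587699-114587728, plus strand): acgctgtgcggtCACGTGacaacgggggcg
LAMTOR1 (chr11:72103445-72103474, minus strand): ctttccccgcatCACGTGcttgcgtgtacg
LAMTOR4 (chr7:100148892-100148921, plus strand): agcggctgcaagCACGTGaccggggcctga
RRAGB (chrX:55717712-55717741, plus strand): ggtagcggcagtCACGTGacagactccggg
RRAGC (chr1:38859867-38859896, minus strand): aggtgattccggCACGTGacggggcaccac
FNIP1 (chr5:131797094-131797123, minus strand): tccgcgcgccgcCACGTGatgcggcccccc
The copies shown began between 165 bases before the start in LAMTOR1 and 14 bases before it in LAMTOR4, and no accessory gene with a promoter in the table held the motif. RRAGB held 3 copies in its window, of which the last began at base 8 after the start, and ATP6V0B and FNIP1 held a pair each. Tested members with the motif had a median log2 fold change of -0.08 in siAxl over siCt, and those without it had -0.06. ATP6AP1L, ATP6V0D2, ATP6V0E1, ATP6V1A, ATP6V1B2, ATP6V1C1, ATP6V1E2, ATP6V1H, RRAGA and RRAGD are not in these medians, among them 5 of the 9 members called below and both with the largest changes. Letters in a window describe the sequence and are no evidence that a factor binds there.

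After the low-count filter 35 members were tested, and ATP6V1C2, ATP6V1G3 and the readthrough gene ATP6V1G2-DDX39B were not. Among all 16064 genes tested, 18.7% were called at a limma adjusted p under 0.05, 10.8% as higher and 7.91% as lower in siAxl. The called genes were thus 57.7% higher ones, a share that was 46.8% under scaling by library size. Of the 35 members 9 were called, of which 4 rose (11.4%) and 5 fell (14.3%). By sign alone 25 members (71.4%) were lower in siAxl, against 50.3% of all tested genes. RRAGA, RRAGD, ATP6AP1 and ATP6AP2 rose, while ATP6V0D2, ATP6V1C1, ATP6V1G1, ATP6V0B and ATP6V1B2 fell. In this fit no V0 or V1 subunit was called higher, and no Rag or accessory gene was called lower. With the replicate number as a block, ATP6V0A4 was called higher (limma adjusted p = 0.0195) and ATP6AP1L lower (0.0141). Ragulator and the folliculin complex had 0 calls in fits of all libraries by limma without a block, edgeR or DESeq2. With the replicate number as a block, LAMTOR2 was called higher (limma adjusted p = 0.000436) and FLCN lower (0.0187). Of the 8 genes of these complexes LAMTOR2 was the 1 under the threshold before adjustment in the main limma fit. The median log2 fold change was -0.09 over the tested members and -0.0022 over all tested genes. These counts changed when single libraries were left out, and so did the number called among all tested genes.

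**Figure D1:**
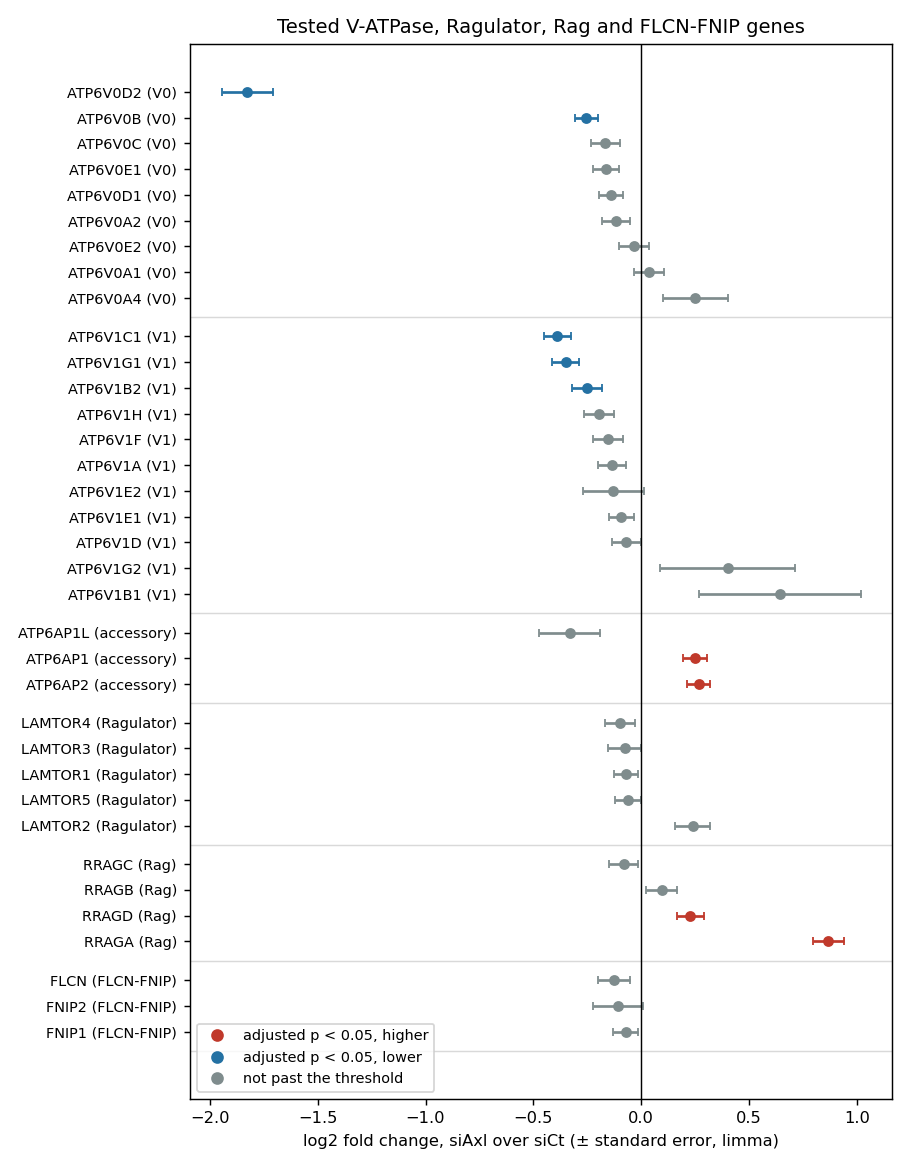
Log2 fold change of each tested member in siAxl over siCt (horizontal axis), with the standard error of the limma fit as bars, ordered within V0, V1, accessory, Ragulator, Rag and FLCN-FNIP genes. ATP6V0D2, at -1.83, and RRAGA, at 0.87, stand at the ends of a set whose other called members lie between -0.39 and 0.27.

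ATP6V0D2 (ENSG00000147614), the isoform of the d subunit enriched in osteoclasts, macrophages and kidney, fell furthest. The d subunit couples the proton-carrying ring of V0 to the central stalk of V1. Its normalized counts were 685 and 839 in siCt, and 218 and 208 in siAxl. Both siAxl libraries were low and lay far below both siCt libraries. The mean went from 762 ± 109 to 213 ± 6.53 (SD, n = 2 in each), which left 28.0% of the siCt level. On the log2 scale this was a change of -1.83 (SE 0.119, limma adjusted p = 0.00113), which ranged from -1.97 to -1.68 with 1 library left out.

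ATP6V0D1 (ENSG00000159720), the d isoform found in most tissues, had 4153 and 4357 normalized counts in siCt against 3848 and 3885 in siAxl. Its groups did not overlap either, although the difference was small (log2 fold change -0.14, SE 0.0557, limma adjusted p = 0.132). Within each library, the log2 ratio of ATP6V0D2 to ATP6V0D1 was -2.60 and -2.38 for siCt 1 and 2, against -4.14 and -4.21 for siAxl 1 and 2. The ratio was thus lower by 1.69 on the log2 scale in siAxl (siAxl minus siCt, -1.69), where the gap within a group was at most 0.223. An exact two-sided permutation test over the 4 libraries gave p = 0.333, the smallest that 2 against 2 allows. Leaving out 1 library gave differences between -1.80 and -1.58. Per kilobase of exon, ATP6V0D2 made up 31.0% and 34.4% of the summed level of both d isoforms in siCt and 13.4% and 12.8% in siAxl. The lengths join the exons of all annotated transcripts, 3010 bases for ATP6V0D2 and 8212 for ATP6V0D1. Some of these transcripts may not be made here, so the size of each share depends on that choice. The same holds for the per-kilobase shares of other paralogs below.

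Osteoclast and macrophage genes were checked beside it. The summed level of 11 such markers ran from 767 to 865 normalized counts in siCt and from 790 to 802 in siAxl. DCSTAMP and OCSTAMP, which are required for the fusion of osteoclast precursors, had 0 reads in every library, which allows up to 3.25 normalized counts. Of the 9 markers tested, CSF1R, the receptor of the macrophage growth factor M-CSF, was the 1 called gene and was lower (330 and 399 in siCt, 213 and 252 in siAxl, log2 fold change -0.65, SE 0.138, limma adjusted p = 0.0219). This 1 call made up 11.1% of the 9, against 7.91% of all tested genes called lower. Over these 9 markers the median log2 fold change was 0.30, with 6 above 0. In 5 (55.6%, against 30.6% of all tested genes) the siAxl values were higher without overlap, and in 2 (22.2%, against 30.5%) lower. Some of the markers had few reads, such as CD68 with 24.0 to 41.8 normalized counts. The part of these markers in the result for ATP6V0D2 was not tested. CD14, a monocyte receptor, had 69.0 and 73.7 against 100.04 and 113 (0.57, limma adjusted p = 0.0509). The log2 fold changes of NFATC1, CD68, CTSK and ITGB3 lay between 0.30 and 0.50, none of them past the threshold. ACP5 and CALCR, 2 osteoclast genes with few reads, pointed downward and were not past the threshold either. ACP5 had 9.59 and 23.8 in siCt against 5.83 and 10.8 in siAxl (-0.85, limma adjusted p = 0.291). CALCR had 28.8 and 16.3 against 12.6 and 11.8 (-0.78, limma adjusted p = 0.177). In bulk RNA, fewer expressing cells and less RNA per cell cannot be told apart for a gene such as ATP6V0D2.

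In the V1 sector, 3 of the 11 tested subunits fell (27.3%, against 7.91% of all tested genes) and 0 rose (against 10.8%). ATP6V1C1 (ENSG00000155097) encodes the C subunit, which ties the stator of V1 to V0 and is released when the pump comes apart. Values of 7939 and 8674 normalized counts in siCt stood against 6190 and 6490 in siAxl. The siAxl libraries were clearly below the siCt libraries, at 76.3% of the mean (log2 fold change -0.39, SE 0.0638, limma adjusted p = 0.00936).

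ATP6V1G1 (ENSG00000136888), whose product pairs with the E subunit in the peripheral stalks, had 5947 and 6575 normalized counts in siCt against 4924 and 4886 in siAxl. Here the siAxl libraries nearly coincided and both were low (log2 fold change -0.35, SE 0.0643, limma adjusted p = 0.0133). ATP6V1B2 (ENSG00000147416), the nucleotide-binding B subunit found in most tissues, had 4371 and 4844 against 3758 and 3973. Its groups were close but did not overlap (log2 fold change -0.25, SE 0.0689, limma adjusted p = 0.0448). This call was lost without siCt 2 (limma adjusted p = 0.176), without siAxl 1 (0.196) and without siAxl 2 (0.0781), whereas ATP6V1C1 and ATP6V1G1 remained called in each of these fits.

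**Figure D2:**
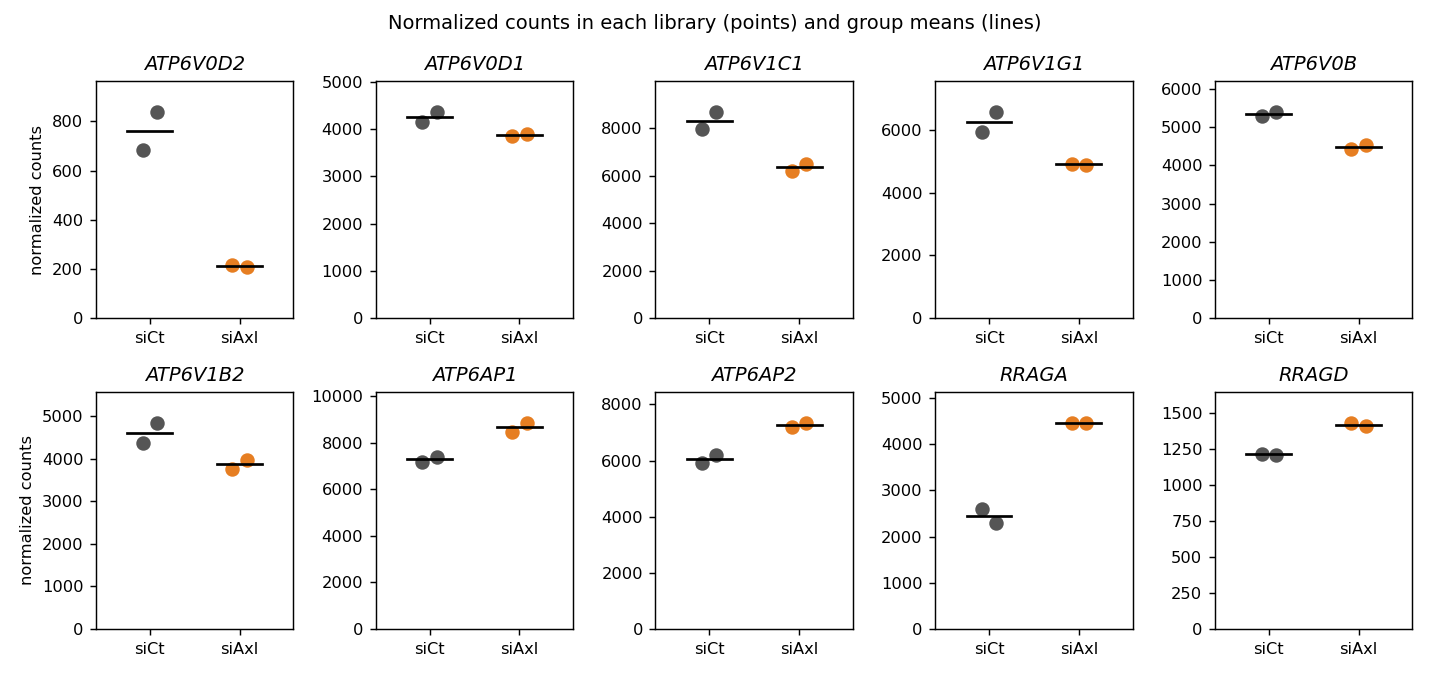
Normalized counts (vertical axes, each from 0) of the 9 called members and of ATP6V0D1 in the 2 siCt and 2 siAxl libraries, with lines at the group means. In each panel both siAxl points lie on the same side of both siCt points, from 685 and 839 against 218 and 208 in ATP6V0D2 to 1213 and 1211 against 1433 and 1407 in RRAGD.

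The other tested V1 subunits were not past the threshold. ATP6V1A, which holds the catalytic sites, had 3806 and 4168 normalized counts in siCt and 3541 and 3708 in siAxl (log2 fold change -0.14, SE 0.0657, limma adjusted p = 0.194). ATP6V1H, a regulatory subunit of the stator, had 2454 and 2724 against 2234 and 2288 (-0.19, SE 0.0693, limma adjusted p = 0.0953). For ATP6V1E1 and ATP6V1F both siAxl libraries were below both siCt libraries, and for ATP6V1D the groups overlapped.

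Tissue-restricted V1 isoforms were few in reads. The renal intercalated cell uses several of them and ATP6V0A4. Its 3 markers that are no members summed to 118 and 111 normalized counts in siCt and to 94.2 and 107 in siAxl, nearly all of it SLC26A4, and FOXI1, the factor that defines this cell, had 0 reads in every library. ATP6V1B1, the B isoform of kidney and inner ear, had 12.5 and 13.0 normalized counts in siCt and 28.2 and 14.7 in siAxl, about as few as the 12.5 reads per library of VAX2, which shares its exon sequence on the same strand (limma adjusted p = 0.278). ATP6V1G2, the brain isoform of the G subunit, had 45.1 and 27.1 against 56.3 and 38.3, and it overlaps NFKBIL1, which had 1036 reads per library on the other strand. ATP6V1C2 had between 4.91 and 8.74 in any library, and ATP6V1G3 had 0 in 3 libraries and 2.17 in siCt 2. ATP6V1G2-DDX39B, the readthrough of ATP6V1G2 into DDX39B, had 0 to 5.83 normalized counts and shares exons with DDX39B. ATP6V1E2, a testis isoform, had 138 to 171 normalized counts, with overlapping groups (limma adjusted p = 0.578).

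In the V0 sector, 2 of the 9 subunits fell (22.2%, against 7.91% of all tested genes) and 0 rose (against 10.8%). Besides ATP6V0D2, the called gene was ATP6V0B (ENSG00000117410), a proteolipid of the rotating ring. It had 5284 and 5396 normalized counts in siCt and 4416 and 4532 in siAxl, so that the gap between groups was far wider than the gap within them (log2 fold change -0.26, SE 0.0533, limma adjusted p = 0.0202). The call was narrowly lost without siCt 2 (limma adjusted p = 0.0506), and also without siAxl 1 (0.115) and without siAxl 2 (0.0683), while the fold change stayed between -0.27 and -0.24.

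ATP6V0C, the main proteolipid of the ring, had 1123 and 1134 normalized counts in siCt and 1009 and 1003 in siAxl (log2 fold change -0.17, SE 0.0663, limma adjusted p = 0.129). Its pseudogenes ATP6V0CP1, ATP6V0CP2 and ATP6V0CP3 were listed at 0, and how reads that match more than 1 place were counted is not given in the sources used here, so its level is uncertain. ATP6V0E1, a small subunit of the membrane sector, had 7206 and 7716 against 6492 and 6828 (-0.16, SE 0.0605, limma adjusted p = 0.104). Its paralog ATP6V0E2 overlapped between groups (limma adjusted p = 0.776) and shares exon sequence with ATP6V0E2-AS1 on the other strand, a gene with 176.5 reads per library.

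The a subunit, which forms the proton path and directs the pump to its compartment, is encoded by 4 genes. ATP6V0A1 (limma adjusted p = 0.757) and ATP6V0A4 (0.284) overlapped between groups, and ATP6V0A2 had 2438 and 2315 normalized counts in siCt against 2269 and 2113 in siAxl (log2 fold change -0.12, SE 0.0656, limma adjusted p = 0.256). TCIRG1, the a isoform known from osteoclasts, is outside the naming rule and was looked at as a pathway gene. Per kilobase of exon it made up 75.0% and 72.0% of the a subunit transcripts in siCt and 74.5% and 70.9% in siAxl, ahead of ATP6V0A1 with 14.7% to 16.5%. TCIRG1 was not past the threshold (log2 fold change -0.03, SE 0.124, limma adjusted p = 0.876), and its libraries followed the number and not the siRNA (7854 and 6557 in siCt, 7871 and 6241 in siAxl).

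Small downward differences ran through the common subunits of the pump. In 13 of the 20 tested V0 and V1 genes (65.0%) the siAxl values did not overlap with siCt and were lower, against 30.5% of all tested genes, and in 1 (ATP6V1B1, 5%) they were higher without overlap, against 30.6%. Over these 20 genes the median log2 fold change was -0.14. A limit of 1000 normalized counts, set after the values were seen, left 15 V0 and V1 genes. Of these, 14 (93.3%) had a negative log2 fold change, against 50.3% of all tested genes. In 12 (80%) siAxl was lower without overlap, against 30.5%. Among the 15 genes ATP6V0A1 was the exception, at 0.04. Tested genes below the limit were ATP6V0A4, ATP6V1B1 and ATP6V1G2, with positive changes, and ATP6V0D2 and ATP6V1E2, with negative ones. Shares among all genes above the limit were not computed, and TCIRG1 was not counted. Subunits of the same pump share libraries and are not independent observations.

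Of the 3 accessory genes, 2 were called higher (66.7%, against 10.8% of all tested genes) and 0 lower (against 7.91%). ATP6AP1 (ENSG00000071553), also called Ac45, helps to assemble V0 in the endoplasmic reticulum. It had 7186 and 7369 normalized counts in siCt and 8463 and 8856 in siAxl, both higher (log2 fold change 0.25, SE 0.0546, limma adjusted p = 0.023). ATP6AP2 (ENSG00000182220), the prorenin receptor, is a transmembrane partner of V0. Its values were 5912 and 6184 against 7197 and 7351 (log2 fold change 0.27, SE 0.0545, limma adjusted p = 0.0186). Both lost their calls without siAxl 1 (limma adjusted p = 0.0655 and 0.0707) and without siAxl 2 (0.128 and 0.0908). ATP6AP1L, a little-studied gene related to ATP6AP1, had 229 and 247 in siCt and 210 and 170 in siAxl. It was thus lower without overlap, but not past the threshold (log2 fold change -0.33, limma adjusted p = 0.145).

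Of the 4 Rag GTPase genes, RRAGA (ENSG00000155876) and RRAGD (ENSG00000025039) were called higher (50%, against 10.8% of all tested genes). Called lower were 0 (against 7.91%). RRAGA encodes RagA, the GTP-binding partner that contacts mTORC1 when active. Its level was 2604 and 2295 normalized counts in siCt and 4467 and 4455 in siAxl. The siAxl libraries nearly coincided and stood well above both siCt libraries, at 182% of the siCt mean (log2 fold change 0.87, SE 0.0722, limma adjusted p = 0.00176). Of all tested genes, 2.81% had a change of at least this size in either direction. RRAGB, its close paralog, had 965 and 918 against 1013 and 996, higher in both siAxl libraries but by little (0.09, SE 0.0706, limma adjusted p = 0.398).

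RRAGD had 1213 and 1211 normalized counts in siCt and 1433 and 1407 in siAxl, tight pairs that did not overlap (log2 fold change 0.23, SE 0.0632, limma adjusted p = 0.0469). This was the weakest of the calls. It was lost without any 1 of the 4 libraries (limma adjusted p from 0.0867 without siCt 1 to 0.224 without siAxl 1, with 0.118 without siCt 2 and 0.158 without siAxl 2), with DESeq2 (0.109) and with scaling by library size (0.0628), while its fold change stayed between 0.20 and 0.24. RRAGC, the more abundant partner, had 4028 and 4342 against 3782 and 4130, with overlapping groups (-0.08, limma adjusted p = 0.455).

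Ratios within a library set the paralogs side by side. RRAGA made up 82.2% and 81.1% of the RRAGA and RRAGB transcripts per kilobase in siCt, and 88.3% and 88.5% in siAxl. On the log2 scale the ratio of RRAGA to RRAGB differed by 0.77 between groups, against at most 0.111 within them. For RRAGD to RRAGC the difference was 0.31, against at most 0.153 within a group, and for FNIP2 to FNIP1 it was -0.04, with overlapping groups. In 8 of the 13 paralog pairs compared the ratios of the groups did not overlap, a share close to the 61.2% of all tested genes whose own values did not overlap between groups, and for each such pair the exact two-sided permutation p was 0.333, the smallest possible. How reads matching both paralogs were counted is not given in the sources used here.

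**Figure D3:**
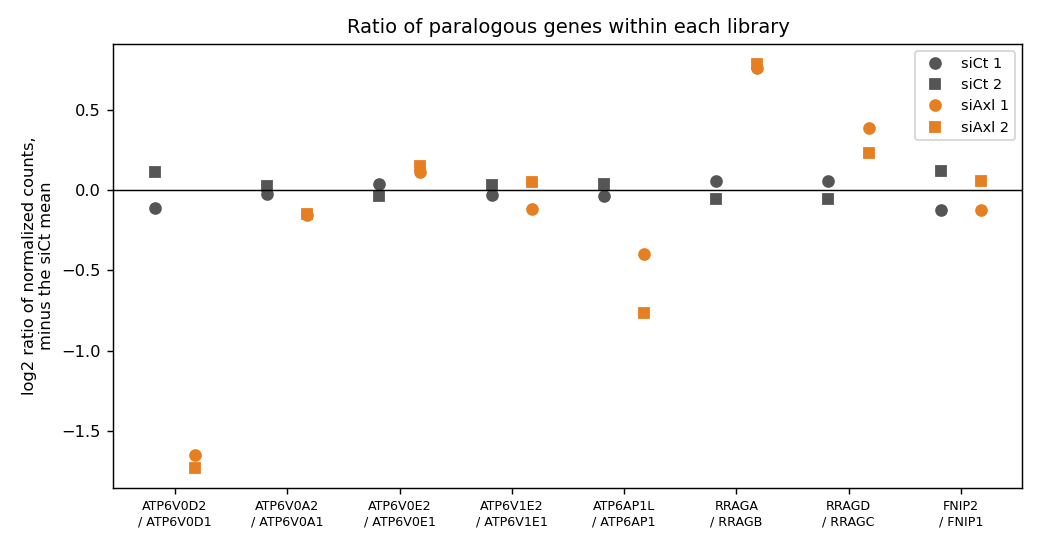
Log2 ratio of the normalized counts of paralogous genes in each library, less the siCt mean of that pair (vertical axis), for 8 of the 13 pairs. ATP6V0D2 to ATP6V0D1 lies 1.69 below and RRAGA to RRAGB 0.77 above the siCt mean, and FNIP2 to FNIP1 overlaps between groups.

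Ragulator differed little between groups. LAMTOR1, which anchors the complex in the lysosomal membrane, had 3618 and 3781 normalized counts in siCt and 3513 and 3540 in siAxl (log2 fold change -0.07, SE 0.0558, limma adjusted p = 0.438). LAMTOR3, LAMTOR4 and LAMTOR5, which form the roadblock-fold scaffold together with LAMTOR2, had log2 fold changes between -0.10 and -0.06, none of them past the threshold. Only LAMTOR2 pointed upward among the 5 genes, with 1033 and 1168 in siCt and 1280 and 1313 in siAxl (0.24, SE 0.0803, limma adjusted p = 0.0811), and without siCt 2 it passed the threshold (limma adjusted p = 0.0193). LAMTOR4 shares exon sequence with C7orf43, which had 1105 reads per library on the other strand, about as many as LAMTOR4 itself (1300).

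In the folliculin complex, FLCN had 2592 and 2414 normalized counts in siCt and 2414 and 2176 in siAxl (log2 fold change -0.13, SE 0.0738, limma adjusted p = 0.28). FNIP1 had 3288 and 3353 against 3082 and 3241 (-0.07, SE 0.0575, limma adjusted p = 0.434). FNIP2 followed the library number, with 1366 in siCt 1 and 1277 in siAxl 1 against 1650 in siCt 2 and 1523 in siAxl 2. Libraries 1 and 2 differed in the same direction in both groups in 29 of the 35 tested members, and in 7 of these both gaps were larger than the difference between siCt and siAxl. These 7 were ATP6V0A1, ATP6V1D, ATP6V1E2, ATP6V1G2, LAMTOR3, RRAGC and FNIP2, and none of them was called. The share of all tested genes with such a shared direction was not computed. It is thus not known whether 29 of 35 is particular to the members.

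**Figure D4:**
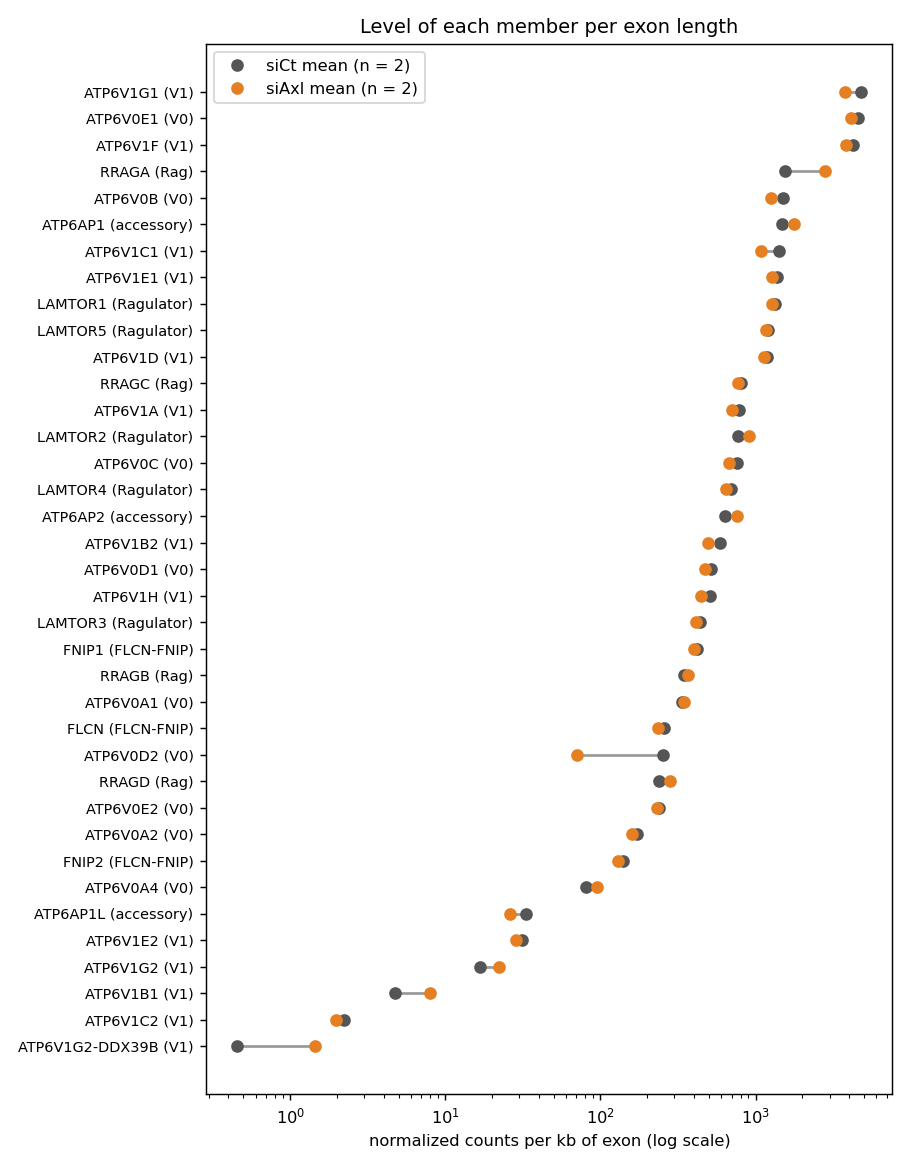
Mean normalized counts per kilobase of exon (log scale) of 37 members in siCt and siAxl, ordered by the siCt level and joined by a line. ATP6V1G3, at 0 in siAxl, is left out, and the longest lines above 10 are those of ATP6V0D2 (253 to 70.7) and RRAGA (1542 to 2807).

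Levels can be compared between members only per exon length, here taken from GENCODE 29 by gene identifier. In siCt the highest were ATP6V1G1 with 4798 normalized counts per kilobase, ATP6V0E1 with 4597 and ATP6V1F with 4226. RRAGA came next with 1542, close to ATP6V0B with 1511 and ATP6AP1 with 1490, and it reached 2807 in siAxl. LAMTOR1 to LAMTOR5 lay between 437 and 1332. ATP6V0D2 had 253 in siCt, close to FLCN with 256 and ahead of RRAGD with 239, and 70.7 in siAxl. These lengths join the exons of all annotated transcripts, including ones that the cells may not make, so neighbours in this order were not taken to differ.

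Genes that work with the pump and the Rags were listed apart from the members. Among 9 genes of mTORC1, the TSC complex and RHEB, 2 rose (22.2%) and 1 fell (11.1%), with a median log2 fold change of -0.0051, where all tested genes had 10.8% higher and 7.91% lower. RPTOR, the subunit that binds the Rags, had 3457 and 3464 normalized counts in siCt and 4039 and 4146 in siAxl (log2 fold change 0.24, SE 0.0538, limma adjusted p = 0.0243). TSC2, the inhibitor of RHEB, rose by 0.28 (limma adjusted p = 0.0241), and TBC1D7, its partner, fell by 0.38 (limma adjusted p = 0.0144). MTOR (log2 fold change 0.05, limma adjusted p = 0.612) and RHEB (-0.01, limma adjusted p = 0.910) did not pass.

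Upstream of the Rags, 2 of 22 amino acid sensing genes rose and 2 fell (9.09% each), with a median of 0.05. These shares were near those of all tested genes, 10.8% and 7.91%. SESN3, a sestrin, had 623 and 699 normalized counts in siCt and 800 and 874 in siAxl (log2 fold change 0.34, limma adjusted p = 0.0426), while SESN1 went the other way with 465 and 464 against 316 and 350 (-0.48, limma adjusted p = 0.0181). C17orf59, which encodes a Ragulator-binding protein of the BORC complex, rose by 0.35 (limma adjusted p = 0.0361). SEH1L, shared by GATOR2 and the nuclear pore, fell by 0.35 (limma adjusted p = 0.0096). SLC38A9, the lysosomal arginine transporter that contacts Ragulator, had 1120 and 1113 against 1266 and 1385 (0.25, limma adjusted p = 0.0569).

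Among 14 tested genes of V-ATPase assembly and regulation, 4 rose (28.6%, against 10.8% of all tested genes) and 1 fell (7.14%, against 7.91%), with a median of 0.04. CCDC115 and TMEM199 encode partners in the assembly of the pump and moved in opposite directions. CCDC115 had 716 and 686 normalized counts in siCt and 955 and 955 in siAxl (log2 fold change 0.45, SE 0.0729, limma adjusted p = 0.00925), and TMEM199 had 992 and 1081 against 788 and 850 (-0.34, SE 0.0815, limma adjusted p = 0.0304). TM9SF4, reported to bind V1, rose by 0.43 (limma adjusted p = 0.00454), TMEM9 by 0.31 (0.0204) and TLDC1 by 0.23 (0.0324). The RAVE-related genes DMXL1, DMXL2, WDR7 and ROGDI were not past the threshold, with log2 fold changes from -0.16 to 0.34.

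Of the MiT/TFE factors, TFE3 rose, with 6355 and 5883 normalized counts in siCt and 7359 and 7122 in siAxl (log2 fold change 0.24, SE 0.0603, limma adjusted p = 0.0331). TFEB had 385 and 381 against 467 and 467 (0.28, limma adjusted p = 0.0637), and MITF had 1621 and 1782 against 1362 and 1489 (-0.26, limma adjusted p = 0.0629). TFE3 was thus 1 of 3 tested factors called higher (33.3%, against 10.8% of all tested genes). TFEC had at most 3.88 normalized counts and was not tested. Of 11 lysosomal ion channel genes, whose median log2 fold change was 0.03, CLCN3, an endosomal chloride-proton exchanger, was the 1 called (9.09% lower, against 7.91% of all tested genes), with 7082 and 7957 against 5681 and 5657 (-0.41, SE 0.0678, limma adjusted p = 0.00997). CLCN7 and MCOLN1, the main lysosomal exchanger and calcium channel, had log2 fold changes of -0.04 and -0.02, not past the threshold.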

How the data were processed

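RNA of 2 siCt and 2 siAxl libraries was sequenced on an Illumina HiSeq. The submitters' processing notes name CASAVA 1.8, TopHat2 2.0.10, HTSeq 0.5.3, DESeq2 1.4.5 and the build GRCh37. Strand use and annotation release are not given in the sources used here. The authors deposited 1 table with a signal per gene and library, the read count divided by the DESeq2 size factor. Divided by the smallest step of its library, 100% of the values came out whole (tolerance 0.01), so reads were recovered by division. The deposited table also holds the authors' own comparison, as log2 fold change with its error, Wald score and p-values, beside their mean, and none of these was used. Unused per-sample columns numbered 0.

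Groups came from the labels. limma 3.58.1 (lmFit, eBayes with an intensity trend, R 4.3.3) was run on log2(normalized count + 1), which makes changes of low genes look smaller, over the 16064 genes that passed edgeR's filterByExpr (minimum count 10). P-values were adjusted by Benjamini-Hochberg over all of them, and a gene was called under 0.05. The fit was tested on simulated data in which 200 genes were changed. That simulation gave every gene the same extra spread and held no effect of the library number. It thus checks how the fit runs and not the calls made here. Alternatives were pseudocounts of 0.5 and 8, other scalings, a filter of at least 1 read in any library, edgeR 4.0.16 and DESeq2 1.42.0 on recovered reads, a threshold of 0.01, the replicate number as a block, and leaving out each library. A count of 0 allows up to 3 reads, for counting error only. For repeated symbols the row with the highest mean was kept, which dropped 9 rows with 0 reads in all.

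Per-library values, folds and p-values were given for called members, their paralogs and the ATP6V0D1 and ATP6V0D2 pair. Other members were given by range with examples, and of the other lists the called genes were named. TCIRG1, SLC38A9, further genes outside this rule and the marker genes printed were chosen after their values were seen, as were further examples among uncalled members. Members and lists were chosen with earlier results of these data known. Exon lengths, overlaps and 3′ UTRs came from GENCODE 29 (GRCh38), which held all 38 members. Promoters came from RefSeq, and no coordinates of the authors' build were used.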

Additional observations from a re-analysis of the deposited data

How the results depend on the processing

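Over the 13 other fits, ATP6V0D2, ATP6V1C1 and RRAGA were called in each. A filter of 1 or more reads in any library tested 27108 genes and left 1097 called, 757 higher and 340 lower. Among the members 1 was then called higher and 2 lower. This filter ended the calls of ATP6V1G1 (limma adjusted p = 0.0554), ATP6V0B (0.0562), ATP6AP2 (0.0573), ATP6AP1 (0.0659), RRAGD (0.0881) and ATP6V1B2 (0.125). A threshold of 0.01 left 859 genes, with 1 member higher and 2 lower. Called genes were 57.7% higher, but 46.8% under scaling by library size (1536 higher and 1745 lower) and 49.9% under upper quartile scaling (1611 higher and 1617 lower), with RRAGD uncalled in both. No scaling turned the direction of a tested member. With 1 library left out, all calls ranged from 1301 to 3900, members higher from 1 to 5, members lower from 3 to 6 and the ratio of ATP6V0D2 to ATP6V0D1 from -1.80 to -1.58. A lone library in a group is then assumed to vary like the other group. Uncalled members changed sign, ATP6V0A1 between -0.025 and 0.097 (-0.019 without siAxl 1), ATP6V0E2 between -0.091 and 0.024, and FNIP2 between -0.24 and 0.030 (0.020 without siAxl 1). With the replicate block 7310 genes were called (3737 higher and 3573 lower), with 6 members higher and 15 lower. The labels do not say that equal numbers mark a shared culture or day. Deviations of siCt 1 and siAxl 1 from their group means correlated at 0.271 across genes, which are not independent, and with a pair of libraries per group this check cannot establish pairing. Causes of these shifts were not tested.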

Other observations

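Values on the 3′ UTRs belong to none of the comparisons above. The 7-base word CACATCA was chosen with earlier results of these data in view, so its values describe and support nothing. In the transcript with the longest 3′ UTR, the word was found in 1507 of 12988 tested genes (11.6%), whose median log2 fold change was 0.10, against -0.01 in the genes without it. Genes with the word had longer 3′ UTRs, with a median of 3224 bases against 1207. Of them 26.5% were called higher and 5.84% lower, and of the others 11.04% and 9.79%.

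Among the 35 tested members 3 held the word, namely RRAGA (log2 fold change 0.87), ATP6V1A (-0.14) and ATP6V1C1 (-0.39), so carriers stood on both sides of 0. The site of RRAGA is printed because this member rose furthest, and that of ATP6V1A because it did not. Capitals mark the word, and the coordinates are those of the word in GRCh38.
RRAGA (chr9:19050881-19050887, plus strand): tgatagatatgCACATCAaagcctttacc
ATP6V1A (chr3:113810574-113810580, plus strand): aaaacttgatcCACATCAcaccctgttta
In RRAGA the word starts at base 280 of a 3′ UTR of 382 bases, and in ATP6V1A at base 1147 of 2629. ATP6V1C1 held 2 copies. ATP6AP1, ATP6AP2 and RRAGD, the other members called higher, held none. The part of the word in any of these differences was not tested.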
